A study of Mus musculus with 6 samples.

Results

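Macroautophagy, the route by which a cell wraps part of its cytoplasm in a double membrane and delivers it to the lysosome, is built from a small set of conserved proteins. Starvation or stress activates the ULK kinase complex, which switches on a class III phosphatidylinositol 3-kinase, and the lipid it makes recruits WIPI proteins to the growing membrane. A pair of ubiquitin-like conjugation systems then attaches ATG8 proteins (the LC3 and GABARAP families) to that membrane, and cargo receptors such as p62 bind both ubiquitin-tagged cargo and ATG8. In macrophages the same machinery is known to clear microbes and damaged mitochondria and to modify phagosomes. Much of its control is by phosphorylation and lipidation, which transcript counts do not measure.

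The genes described here are 32 named components of this machinery, chosen by symbol and not by their values. All 32 matched 1 gene each among the 34745 genes of the deposited expression table. By role they were 5 genes of the ULK complex, 6 of the class III phosphatidylinositol 3-kinase complex and its regulators, 3 for ATG9 and the WIPI proteins, 7 conjugation genes, 5 ATG8 genes, and 5 cargo receptors with the mitophagy kinase gene Pink1. The study sequenced messenger RNA of mouse alveolar macrophages, the resident phagocytes of the air spaces, collected from broncho-alveolar lavage fluid. There were 3 libraries from Phlpp1-deficient and 3 from WT mice, and the mice of both groups had received bleomycin, a lung-injuring drug used to model fibrosis, at 5 mg per kg, with cells taken at day 7. PHLPP1 is a phosphatase known to remove an activating phosphate from Akt, a kinase upstream of mTORC1, the main inhibitor of the ULK complex. The labels give neither the Phlpp1 allele nor the age, sex or strain of the mice. Whether libraries are from separate animals is not stated, so p-values measure the spread between these libraries. Saline-treated mice were not analysed here.

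Total counts lay between 13340861 and 15843764 per library. Expression below is in CPM (a gene's share of the library's counts, scaled between libraries by TMM factors), and levels of different genes are compared only in FPKM, which also divides by gene length. Phlpp1 itself had 28.0 ± 2.54 CPM across WT, and 20.8 ± 2.85 CPM across Phlpp1-deficient libraries (SD, n = 3 each), with groups that did not overlap and an edgeR adjusted p of 0.62, so the counts check the genotype labels only weakly. All 15 listed markers of resident alveolar macrophages were detected, with summed FPKM of 2386 to 3025 in WT and 2518 to 4793 in Phlpp1-deficient libraries. Those sums were led by Chil3, with 2229 of the 3025 FPKM in WT library 2. The mean log2 CPM of the 15 was 7.39, 6.46 and 6.88 in WT libraries 1, 2 and 3. It was 6.63, 7.76 and 7.70 in Phlpp1-deficient libraries 1, 2 and 3, so by this measure WT library 2 was the lowest. Markers of other cells were present too. The 18 neutrophil markers summed to 556, 5990 and 1319 FPKM in WT libraries 1, 2 and 3 and to 3084, 4789 and 728 FPKM in Phlpp1-deficient libraries 1, 2 and 3, and none of them was at 0 over all libraries. In WT library 2, S100a9 alone gave 3081 of the 5990 FPKM. Of 17 tested neutrophil markers, 15 were higher in each of WT library 2 and Phlpp1-deficient libraries 1 and 2 than in the other libraries. Ltf and Cxcr1 did not have that order. By the sums and by most markers, WT library 2 and Phlpp1-deficient libraries 1 and 2 thus held the most neutrophil transcripts. In such mixed samples, fewer cells of a type and less RNA per cell cannot be told apart.

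Start regions are shown for 3 members on which the results turn: Pink1, the member with the smallest p between the genotypes; Map1lc3b, the member that varied most between libraries; and Atg3, the conjugation gene with the highest FPKM, whose window holds the E-box CACGTG at 2 places. CACGTG is the core of the site bound by TFEB and its relatives, transcription factors known to drive autophagy and lysosome genes. Windows run from 250 bases before to 50 bases after the gene start, 5′ to 3′ on the gene's strand (RefSeq, GRCm38.p6), with motif matches in capitals.
Pink1 (chr4:138326247-138326546, minus strand): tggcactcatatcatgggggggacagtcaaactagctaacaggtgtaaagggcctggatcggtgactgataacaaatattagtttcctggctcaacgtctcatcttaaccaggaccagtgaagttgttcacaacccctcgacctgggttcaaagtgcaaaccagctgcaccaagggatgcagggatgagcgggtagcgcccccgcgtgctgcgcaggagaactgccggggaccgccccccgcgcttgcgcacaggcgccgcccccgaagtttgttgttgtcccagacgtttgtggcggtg
Map1lc3b (chr8:121590188-121590487, plus strand): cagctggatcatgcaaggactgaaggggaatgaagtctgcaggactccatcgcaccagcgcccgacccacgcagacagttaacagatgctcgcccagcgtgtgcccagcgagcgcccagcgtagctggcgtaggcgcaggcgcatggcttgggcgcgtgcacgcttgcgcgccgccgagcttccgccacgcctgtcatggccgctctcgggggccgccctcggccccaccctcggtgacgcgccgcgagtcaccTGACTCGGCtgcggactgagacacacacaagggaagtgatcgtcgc
Atg3 (chr16:45158579-45158878, plus strand): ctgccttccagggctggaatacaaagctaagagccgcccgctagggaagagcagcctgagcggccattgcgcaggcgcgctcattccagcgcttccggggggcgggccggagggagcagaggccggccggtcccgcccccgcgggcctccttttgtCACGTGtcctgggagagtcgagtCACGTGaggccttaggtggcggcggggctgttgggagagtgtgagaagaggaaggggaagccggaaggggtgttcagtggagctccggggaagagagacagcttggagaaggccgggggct
In Atg3 the E-boxes began 94 and 71 bases before the start. The capitals in Map1lc3b mark TGACNNNGC, the core of the antioxidant response element bound by NRF2, 4 bases after the start. Neither motif was found in the Pink1 window. RefSeq windows were matched for 26 of the 32 members (28 windows). CACGTG, which reads the same on both strands, was in 4 of the 28 windows (14.3%), those of Atg3, Atg5, Atg7 and Atg14, against 7.15% of all 32851 windows of the same length. TGACNNNGC, searched on both strands, was also in 4 of the 28 (14.3%), those of Atg13, Map1lc3b, Tax1bp1 and Ulk2, against 12.4% of all windows. No member had a window of both kinds, though the letters of the motifs can overlap. A match of letters is a description of the window only.

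All 32 members were expressed and all 32 passed the filter on low counts, with between 65 and 7128 counts per library. None of the 32 passed the test between the genotypes in edgeR (adjusted p under 0.05 over 14037 genes), where 14 genes passed in all, or 0.0997%. Pink1 was the 1 member with an unadjusted p under 0.05 (3.13% of the members, against 6.96% of all tested genes). DESeq2, which called 1.11% of the genes it gave an adjusted p, limma-voom and limma on the FPKM values called 0 members as well, each with Pink1 alone at an unadjusted p under 0.05. The log2 differences (Phlpp1-deficient minus WT) ran from -0.49 for Pink1 to 0.21 for Atg7, with 17 above and 15 below 0. Their median was 0.02, beside -0.02 over all tested genes. The median size of the difference, without its sign, was 0.07 for the members and 0.16 for all tested genes, and 29 of 32 members lay within 0.2 of 0, as did 57.4% of all tested genes.

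The intervals say how large a difference these libraries could have hidden. The 95% interval of the edgeR difference lay within a 2-fold change in either direction for all 32 members, and within 1.5-fold for 20 of them. The widest was that of Map1lc3b, -0.64 to 0.83 on the log2 scale. The intervals are per gene and not adjusted for the number of members. For each gene, a difference inside its interval was not excluded by these 3 libraries against 3. A p above the threshold does not show that the genotypes were alike.

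**Figure D1:**
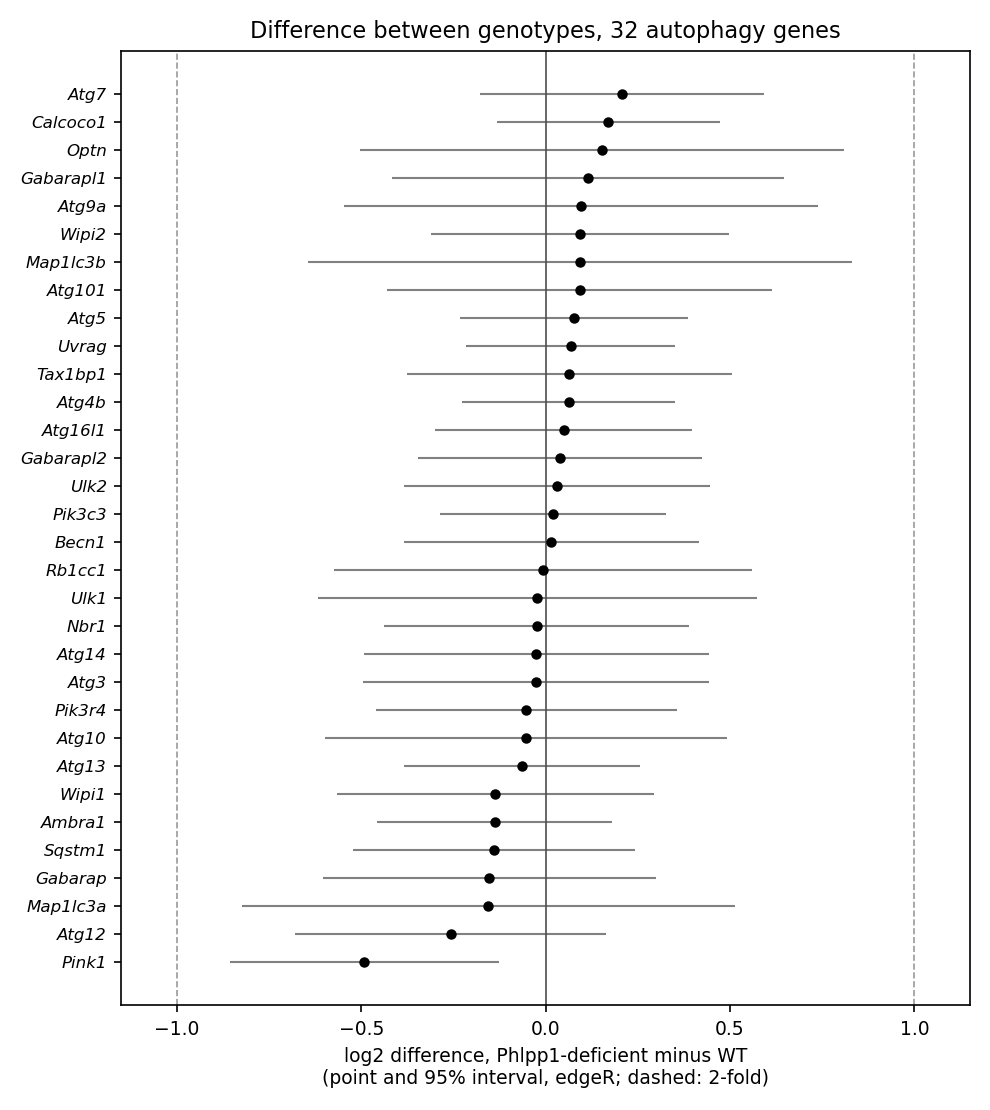
Log2 difference between Phlpp1-deficient and WT libraries for the 32 autophagy genes (points) with 95% intervals from edgeR (bars), ordered by the difference; dashed lines mark a 2-fold change. All intervals stay inside the dashed lines, and that of Pink1 (-0.85 to -0.13) is the one that does not include 0 before adjustment.

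The ULK complex sets autophagy in motion. Ulk1 and Ulk2 are its kinases, ATG13 and ATG101 its regulatory subunits, and Rb1cc1 codes for the scaffold FIP200. By FPKM, Atg101 was the highest of the 5 (mean of 6 libraries 23.9), and Rb1cc1 the lowest of all 32 members (2.54). Atg101 had 24.4, 37.6 and 24.1 CPM in WT libraries 1, 2 and 3 and 28.7, 36.1 and 27.0 CPM in Phlpp1-deficient libraries 1, 2 and 3. The groups overlapped, and library 2 was the highest of each group (log2 difference 0.09, SE 0.22). Atg13 was even across libraries, with 55.0, 59.1 and 57.0 CPM across WT, and 48.2, 53.9 and 61.5 CPM across Phlpp1-deficient libraries, and the Phlpp1-deficient values spanned the WT values (log2 difference -0.06, SE 0.14). It had the smallest p of the complex (edgeR unadjusted p = 0.649, adjusted p = 1).

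Ulk1 stood out by its spread within WT, and was singled out after its values were seen. It had 60.5, 108 and 58.4 CPM in WT libraries 1, 2 and 3 and 75.8, 80.6 and 66.7 CPM in Phlpp1-deficient libraries 1, 2 and 3. WT library 2 was above all other libraries, and the other WT libraries were below all 3 Phlpp1-deficient ones. Rb1cc1 had the same arrangement, with 81.7 CPM in WT library 2, 43.9 and 48.0 CPM in WT libraries 1 and 3, and 56.5, 59.1 and 57.2 CPM in Phlpp1-deficient libraries. Its SD on the log2 scale was 0.48 in WT and 0.03 in Phlpp1-deficient libraries. Ulk2, the paralog of Ulk1, ran the other way, with WT library 2 the lowest of the 6 at 59.1 CPM and Phlpp1-deficient library 3 the highest at 84.1 CPM.

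The class III phosphatidylinositol 3-kinase, VPS34 (gene Pik3c3), works with its regulatory subunit VPS15 (Pik3r4) and Beclin 1 (Becn1). ATG14 directs it to the forming autophagosome, UVRAG to endosomes, and AMBRA1 links Beclin 1 to the ULK complex. Uvrag and Pik3c3 were among the members with the narrowest range over libraries, while Atg14 ranged 1.52-fold. Uvrag, the highest by deposited FPKM (22.0), had 71.2, 77.5 and 72.9 CPM across WT, and 82.8, 76.9 and 72.6 CPM across Phlpp1-deficient libraries, a 1.16-fold range over all 6 (log2 difference 0.07, SE 0.12). Pik3c3 ranged 1.21-fold, from 57.0 to 69.1 CPM, both in WT libraries. Ambra1 had 70.6, 85.7 and 68.7 CPM across WT, and 71.0, 65.1 and 68.2 CPM across Phlpp1-deficient libraries. The values overlapped, with WT library 2 the highest, and the log2 difference of -0.14 (SE 0.14) had the smallest p of the complex (edgeR unadjusted p = 0.34, adjusted p = 1). Becn1 ranged from 94.6 to 134 CPM in WT and from 104 to 116 CPM in Phlpp1-deficient libraries, with means of 109 ± 21.4 and 110.1 ± 6.21 CPM (SD, n = 3 each). Atg14 and Pik3r4 had log2 differences of -0.03 and -0.05.

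ATG9A is the lipid scramblase whose vesicles seed the autophagosome, and WIPI1 and WIPI2 read the lipid made by VPS34. Atg9a, the highest of the 3 by FPKM (5.91, beside 5.89 for Wipi2), had 50.5, 92.6 and 51.5 CPM in WT libraries 1, 2 and 3. In Phlpp1-deficient libraries 1, 2 and 3 it had 74.1, 79.0 and 54.7 CPM. WT library 2 and Phlpp1-deficient libraries 1 and 2 were above the other 3 libraries, and the groups overlapped (log2 difference 0.10, SE 0.27). Wipi1 was low by FPKM (2.93). It had 13.4, 16.9 and 13.5 CPM across WT, and 12.3, 15.5 and 12.01 CPM across Phlpp1-deficient libraries. Its log2 difference was -0.14 (SE 0.18, edgeR unadjusted p = 0.478, adjusted p = 1). Library 2 was again the highest of each group.

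In the conjugation systems, ATG7 is the activating enzyme, ATG10 and ATG3 the transfer enzymes, ATG12, ATG5 and ATG16L1 form the complex that attaches ATG8 to membrane, and ATG4B trims and recycles ATG8. Atg3, whose E-boxes are shown above, had the highest FPKM of the 7 (35.5) and Atg16l1 the lowest (3.18). Atg3 had 115, 143 and 114 CPM in WT libraries and 120.3, 149 and 95.7 CPM in Phlpp1-deficient libraries, with library 2 the highest in each group and a Phlpp1-deficient library at both ends of the range (log2 difference -0.03, SE 0.20). Atg12 had the smallest p of the 7. It had 55.4, 76.1 and 60.2 CPM across WT, and 46.7, 50.7 and 62.9 CPM across Phlpp1-deficient libraries, and the groups overlapped through Phlpp1-deficient library 3 (log2 difference -0.26, SE 0.18, edgeR unadjusted p = 0.192, adjusted p = 0.93). Atg7 had the largest positive difference of the 32, 0.21 (SE 0.16, edgeR adjusted p = 0.971), with means of 69.0 ± 5.24 and 79.6 ± 14.0 CPM (SD, n = 3 each) and 2 Phlpp1-deficient libraries above all WT libraries. Atg4b and Atg5 ranged 1.16-fold and 1.22-fold over the 6 libraries, and Atg10 had 4.66 to 6.50 CPM (mean 3.50 FPKM).

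The ATG8 proteins are the membrane tags themselves. Gabarap was the highest member by FPKM (mean of 6 libraries 125), above 97.5% of the genes with a mean of at least 1 FPKM. It had 406, 526 and 395 CPM in WT libraries 1, 2 and 3 and 355, 446 and 393 CPM in Phlpp1-deficient libraries 1, 2 and 3. The groups overlapped, with library 2 the highest in each (log2 difference -0.15, SE 0.19, edgeR adjusted p = 1). Within the family the order by FPKM was Gabarap, Gabarapl2 (18.3), Gabarapl1 (18.0), Map1lc3b (7.70) and Map1lc3a (3.62). Gabarapl2 and Gabarapl1 did not differ beyond their spread, which was 17.9 ± 2.09 and 17.3 ± 4.14 FPKM in WT and 18.7 ± 1.58 and 18.7 ± 5.05 FPKM in Phlpp1-deficient libraries (SD, n = 3 each). Gabarap made up 73.8% ± 2.4 of the family's summed FPKM in WT and 71.0% ± 0.8 in Phlpp1-deficient libraries (SD, n = 3 each). Map1lc3b, whose protein is the usual laboratory marker of autophagosomes, made up 4.1% ± 1.2 and 4.8% ± 1.0.

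Map1lc3b varied more between libraries than any other member, by 2.11-fold from lowest to highest. It had 62.1, 119.98 and 56.8 CPM in WT libraries 1, 2 and 3 and 90.3, 98.5 and 65.9 CPM in Phlpp1-deficient libraries 1, 2 and 3. WT library 2 was the highest and the other WT libraries the lowest, with all Phlpp1-deficient values between them (log2 difference 0.09, SE 0.31, edgeR adjusted p = 1). Gabarapl1 ran the other way, with 64.9, 45.5 and 54.7 CPM across WT, and 45.4, 57.0 and 76.5 CPM across Phlpp1-deficient libraries, the highest value in Phlpp1-deficient library 3. Its log2 difference was 0.12 (SE 0.23).

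**Figure D2:**
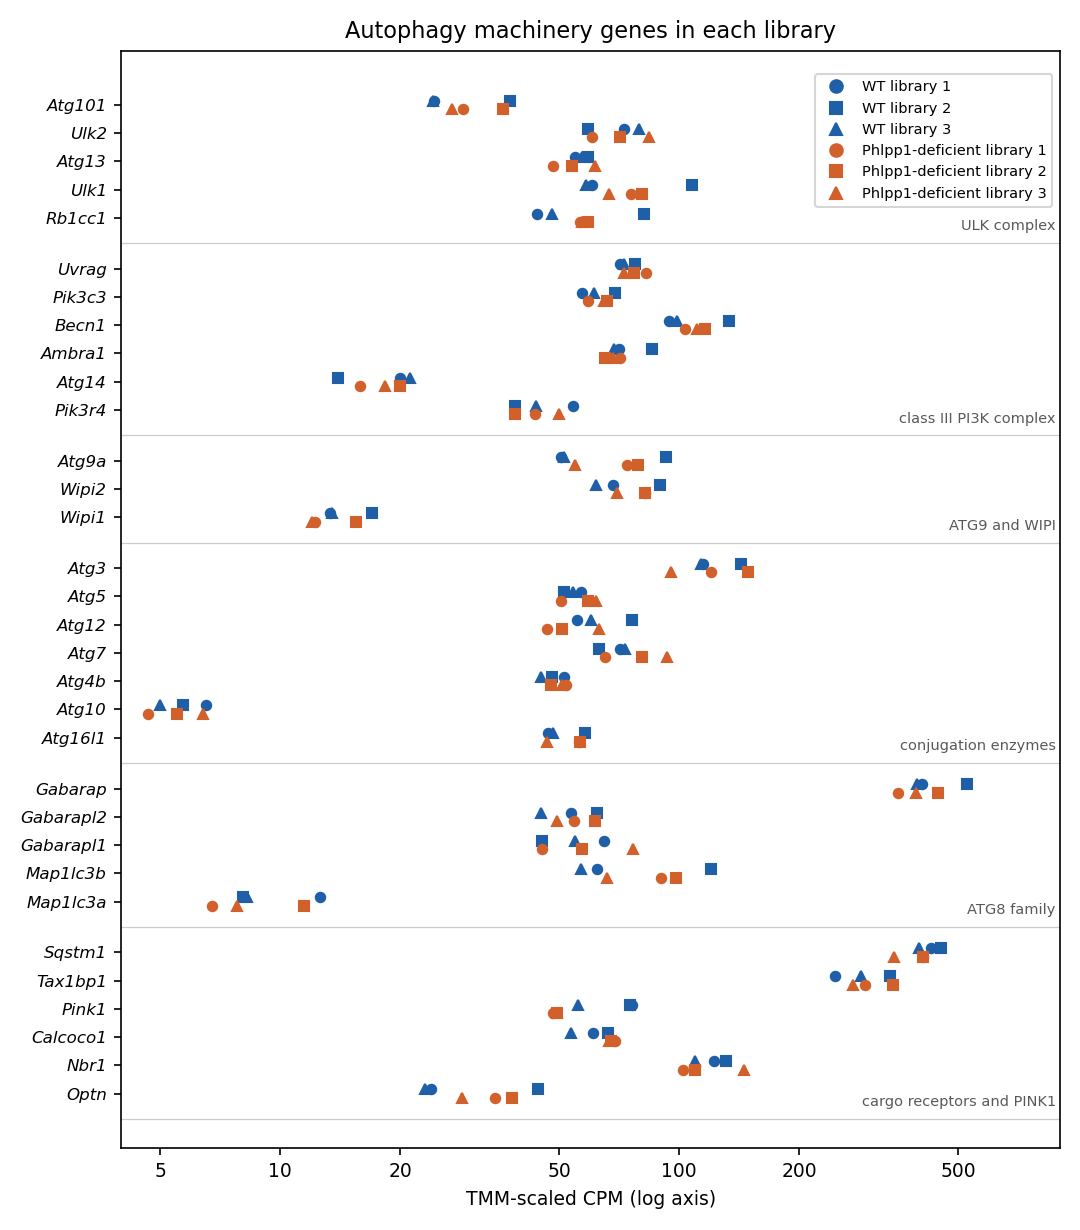
TMM-scaled CPM (log axis) of each autophagy gene in each of the 6 libraries, grouped by role and ordered within a role by mean FPKM; blue, WT; orange, Phlpp1-deficient; the marker shape gives the library number. WT and Phlpp1-deficient points interleave for all genes but Pink1 and Calcoco1, and WT library 2 (blue square) is the highest point of 16 genes.

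Cargo receptors hold what is to be degraded. p62 (Sqstm1) and NBR1 bind ubiquitin-tagged proteins, optineurin (Optn) and TAX1BP1 are known in the capture of bacteria and mitochondria, and CALCOCO1 is a receptor for endoplasmic reticulum and Golgi. Sqstm1 had the second highest FPKM of the 32 (58.0). It had 429, 453 and 400.5 CPM in WT libraries 1, 2 and 3 and 409, 408 and 347 CPM in Phlpp1-deficient libraries 1, 2 and 3. WT library 3 lay below Phlpp1-deficient libraries 1 and 2, so the groups overlapped (log2 difference -0.14, SE 0.16, edgeR adjusted p = 1). Optn had 23.8, 44.4 and 23.0 CPM across WT, and 34.6, 38.1 and 28.6 CPM across Phlpp1-deficient libraries, the arrangement seen for Map1lc3b, with WT library 2 at the top and the other WT libraries at the bottom. Nbr1 and Tax1bp1 had log2 differences of -0.02 and 0.06. Calcoco1, singled out after its values were seen, had 60.8, 66.4 and 53.5 CPM across WT, and 68.9, 67.5 and 66.9 CPM across Phlpp1-deficient libraries, so every Phlpp1-deficient library was above every WT library. The difference was small (log2 0.17, SE 0.13, edgeR unadjusted p = 0.224, adjusted p = 0.957).

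Pink1 codes for the kinase that marks damaged mitochondria for mitophagy (ENSMUSG00000028756, GRCm38 chromosome 4, 138313409 to 138326307, minus strand). It had 76.0, 75.3 and 55.7 CPM in WT libraries 1, 2 and 3 and 48.2, 49.5 and 49.5 CPM in Phlpp1-deficient libraries 1, 2 and 3. Every Phlpp1-deficient library was below every WT library, the Phlpp1-deficient values lay close together, and WT library 3 was nearer to them than to the other WT libraries. The means were 69.0 ± 11.5 and 49.1 ± 0.729 CPM (SD, n = 3 each). The log2 difference was -0.49 (SE 0.15, 95% interval -0.85 to -0.13), with an edgeR unadjusted p of 0.015 and an adjusted p of 0.531, so it did not pass. By exact permutation of the libraries (two-sided) p was 0.1, which is as small as 3 against 3 can give. Pink1 and Calcoco1 were the 2 of 32 members whose groups did not overlap (6.25%), where 11.1% of all tested genes had such groups. By direction, 6.53% of all tested genes had every Phlpp1-deficient library below WT, as for Pink1, and 4.57% had every one above, as for Calcoco1. The share of the members was below the background, but such a small count tells no difference from it. Levels of other marker lists were uneven between the genotypes as well. Resident alveolar macrophage markers had 15 of 15 log2 differences above 0 (median 0.47), with 0 at an unadjusted p under 0.05. Monocyte and recruited macrophage markers summed to 1374 to 2334 FPKM in WT and 1354 to 1769 FPKM in Phlpp1-deficient libraries. No marker was at 0, and 12 of 14 log2 differences were below 0. Of the 14, 6 had an edgeR unadjusted p under 0.05 (42.9%, against 6.96% of all tested genes). The mean log2 CPM of these markers was 7.26, 7.35 and 7.69 in WT libraries 1, 2 and 3. In Phlpp1-deficient libraries 1, 2 and 3 it was 6.84, 6.99 and 7.02, each below every WT library. B cell markers summed to 45.9 to 128 and 110 to 448 FPKM, with 12 of 12 above 0 and no marker at 0. Of these, 7 had an edgeR unadjusted p under 0.05 (58.3%). Lung epithelial markers summed to 336 to 396 and 552 to 1586 FPKM, with 14 of 14 above 0 and no marker at 0. Among them, 3 had an edgeR unadjusted p under 0.05 (21.4%). T and NK cell markers summed to 547 to 718 and 517 to 834 FPKM, with 7 of 14 above 0 and no marker at 0. Of the 14, 5 had an edgeR unadjusted p under 0.05 (35.7%). Their log2 differences ran from -1.74 for the NK cell gene Ncr1 to 0.72. Immediate early genes, which respond to handling and stress, summed to 835 to 1434 and 1164 to 5655 FPKM. For these genes 18 of 20 log2 differences were above 0, and 11 had an edgeR unadjusted p under 0.05 (55.0%). The part of any of these lists in the values of Pink1 was not tested.

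Several members varied between libraries of the same genotype. WT library 2 was the highest of the 6 libraries in 16 of 32 members, and in 24.1% of all tested genes. In 11 members (34.4%) WT library 2 and Phlpp1-deficient libraries 1 and 2, those with the most neutrophil transcripts, were each above the other 3 libraries: Ulk1, Atg101, Uvrag, Atg9a, Wipi2, Atg3, Atg16l1, Map1lc3b, Gabarapl2, Optn and Tax1bp1. That order held in 13.7% of all tested genes. The opposite order, with these 3 libraries the lowest, held for Ulk2 and Pik3r4, and in 15.3% of all tested genes. Members share libraries and are not independent, so these counts are descriptions without a test.

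A fit chosen after these values were seen, with genotype and the mean log2 CPM of 17 neutrophil markers as terms, gave the change per doubling of that mean. None of the 32 members passed in edgeR (adjusted p under 0.05), against 4.59% of all tested genes, 4.24% with a positive and 0.356% with a negative slope. Of the members, 10 had an unadjusted p under 0.05 (31.3%, against 20.2%). Of the 10, 8 had a positive slope (12.2% of all tested genes) and 2 a negative one (7.96%). The log2 change was 0.21 (SE 0.05, edgeR adjusted p = 0.0573) for Atg9a, 0.23 (SE 0.06, adjusted p = 0.0777) for Map1lc3b, 0.20 (SE 0.06, adjusted p = 0.0995) for Optn and 0.18 (SE 0.06, adjusted p = 0.131) for Ulk1. It was -0.12 (SE 0.04, edgeR adjusted p = 0.162) for Pik3r4 and -0.15 (SE 0.06, adjusted p = 0.187) for Gabarapl1, and -0.00059 for Pink1. DESeq2 called Atg9a (adjusted p = 0.0116) and Map1lc3b (adjusted p = 0.0194), and edgeR without a filter on low counts called Atg9a (adjusted p = 0.0477). These calls, 2 and 1 of the 32 members, stood beside 1233 genes (8.35%) called by DESeq2 and 770 (3.45%) called without a filter. The members' share was thus not above the background in either fit, and such small counts tell no difference from it. The fit leans on WT library 2, without which 1 gene passed over all genes, against 645 with it. Without that library the slope was 0.13 for Atg9a, 0.12 for Map1lc3b, 0.09 for Optn and 0.05 for Ulk1 (edgeR adjusted p from 0.771 to 0.928). Erythroid transcripts were also highest in WT library 2 and Phlpp1-deficient library 2 (summed FPKM 6001 and 3923, against 281 to 842 in the others), and the part of either cell type in the members' levels was not tested.

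**Figure D3:**
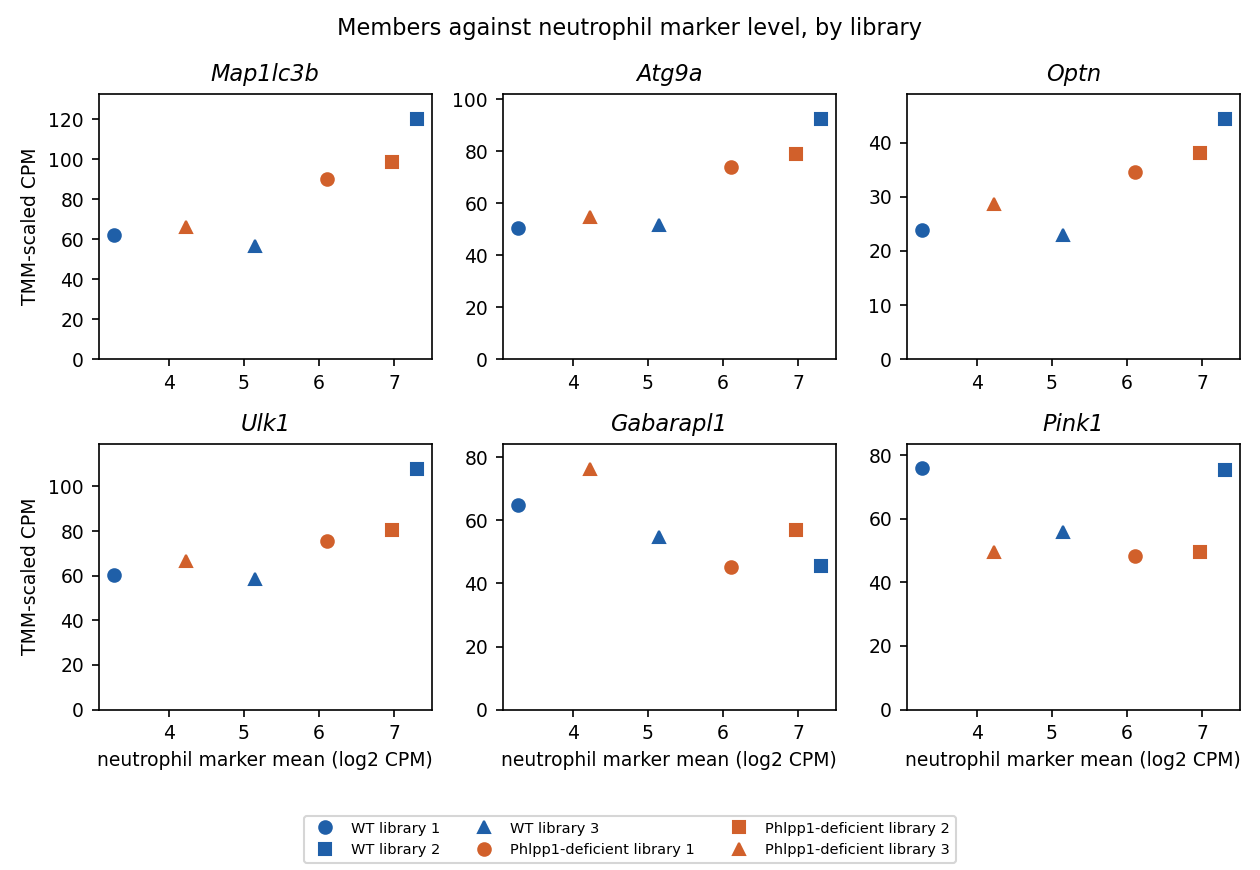
TMM-scaled CPM of 6 members (vertical axis, from 0) against the mean log2 CPM of the neutrophil markers (horizontal axis) in each library; blue, WT; orange, Phlpp1-deficient. Map1lc3b, Atg9a, Optn and Ulk1 are highest in the 3 libraries at the right, Gabarapl1 has its 2 highest values among the libraries at the left, and Pink1 separates by genotype (48.2 to 49.5 CPM against 55.7 to 76.0 CPM).

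WT library 2 also set the size of several genotype differences. Without it, 6 members had an unadjusted p under 0.05 (18.8%, against 8.49% of all tested genes), and none passed after adjustment in edgeR. Of the 6, 5 were higher in Phlpp1-deficient libraries (4.65% of all tested genes). The log2 difference was then 0.54 for Optn, 0.53 for Map1lc3b, 0.46 for Atg9a and 0.34 for both Rb1cc1 and Ulk1 (edgeR adjusted p from 0.537 to 0.588), where it was 0.15, 0.09, 0.10, -0.01 and -0.02 with all libraries. In that comparison the Phlpp1-deficient libraries also held more neutrophil transcripts than the 2 WT libraries on average, and the part of these cells was not tested. Pink1 was -0.41 without WT library 2 and between -0.59 and -0.41 in the 6 fits that each left out a library. Its edgeR unadjusted p without WT library 1 was 0.0564, and its adjusted p ranged from 0.349 to 0.969 over all alternatives.

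Levels between genes depend on the length that FPKM divides by. The length behind the deposited values, recovered from counts, totals and FPKM, equalled the sum of all distinct annotated exons in GENCODE M21, within 1 base, for 24 of 32 members and 65.2% of 9254 well-counted genes. Overlapping exons of different transcripts are then counted repeatedly. It was longer than the merged exons for 25 members and shorter for 6. With the merged-exon length, Gabarap, Sqstm1, Atg3 and Tax1bp1 kept the first 4 places, at 227, 121, 38.7 and 29.5 on the FPKM scale. Atg12 moved from place 7 to 24 and Uvrag from 8 to 22, since their deposited lengths were 2492 and 3438 bases against 7711 and 9035 bases of merged exons. Gabarapl1 (28.6) then lay above Gabarapl2 (23.3). The lowest of all members was then Wipi1 (3.14) and not Rb1cc1 (3.90). The lowest conjugation gene was Atg10 (3.28) and not Atg16l1 (5.39). Becn1 (15.4) took the place of Uvrag (8.37) as the highest of the class III complex. Comparisons of 1 gene between libraries are not touched by this.

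**Figure D4:**
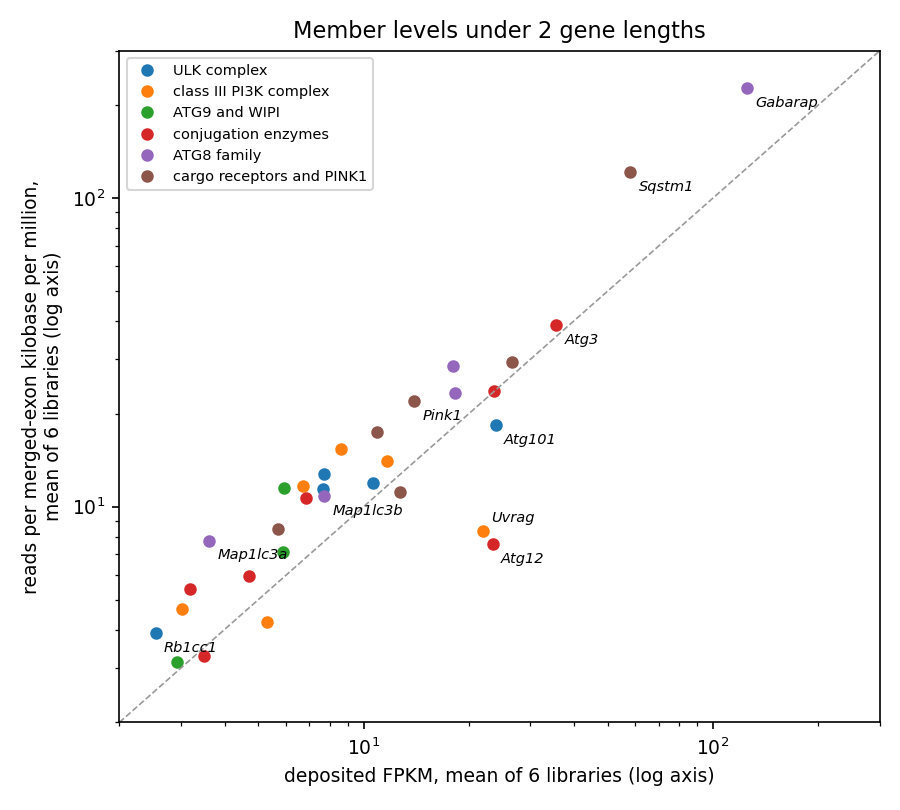
Mean level over 6 libraries of each member by the deposited FPKM (horizontal, log axis) and by the same measure with merged-exon length (vertical, log axis); colour gives the role and the dashed line equality. Most members lie above the line, while Uvrag and Atg12 lie well below it (22.0 and 23.4 FPKM, against 8.37 and 7.57 by merged exons).

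Some counts are uncertain by sequence. Transcripts of 6 members match another gene over 150 bases or more at an identity of at least 95%. The longest match was 1324 bases for Rb1cc1 (pseudogene Gm13961, 95.6% identity), 378 bases for Map1lc3b (pseudogene Gm6055, 99.7%) and 352 bases for Gabarapl2 (pseudogene Gm6051, 98.0%), so reads could have been split there. These pseudogenes are not among the genes with deposited counts, so whether reads went to them cannot be seen. Gm5612, a pseudogene matching Map1lc3b over 375 bases, had 0 counts. The other members with a match were Uvrag, Wipi2 and Calcoco1. Exons of Atg9a and Pink1 overlap other genes on their own strand, over a long stretch for Atg9a and short ones for Pink1. The counts of Atg9a are therefore uncertain over a large part of its exons. Exons of 10 members overlap a gene on the opposite strand, among them Becn1 (Cntd1), Sqstm1 (Mrnip) and Optn. That overlap is long for Becn1 and short for Optn. Without a stated strand setting, reads from both strands are not separable.

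Other genes around the machinery were read from 6 lists, of which 0 genes passed between the genotypes in edgeR. Among 18 other ATG and phagophore genes the median log2 difference was -0.05 and 0 had an unadjusted p under 0.05. Bcl2, whose protein holds Beclin 1 inactive, had 132 ± 43.0 CPM across WT, and 88.2 ± 12.9 CPM across Phlpp1-deficient libraries, and Vmp1, needed for membrane growth at the endoplasmic reticulum, had 192 ± 43.3 and 152 ± 2.95 CPM (SD, n = 3 per group; adjusted p by edgeR 0.771 and 0.864). Among 17 tested selective receptors and regulators (of 18 listed) the median was 0.03. Of them, 1 had an edgeR unadjusted p under 0.05 (5.88%, against 6.96% of all tested genes). Stbd1, a glycogen receptor, had 3.94 ± 1.305 and 2.04 ± 0.549 CPM, and Rtn3, a receptor of the endoplasmic reticulum, had 222 ± 19.6 and 266 ± 61.8 CPM (SD, n = 3 per group; adjusted p by edgeR 0.64 and 0.974). For 18 genes of fusion with the lysosome the median was -0.13, beside -0.02 over all tested genes, with 15 below 0. Of the 18, 1 had an edgeR unadjusted p under 0.05 (5.56%). These genes share libraries and are not independent, so the counts are descriptions without a test. Rilp, a Rab7 effector, had 3.59 ± 0.811 and 1.85 ± 0.740 CPM, and Tecpr1, a tether of autophagosome and lysosome, had 145 ± 23.8 and 179 ± 11.3 CPM (SD, n = 3 per group; adjusted p by edgeR 0.694 and 0.851).

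Upstream of the machinery, among 26 genes of mTORC1 and AMPK the median was -0.05 and 2 had an unadjusted p under 0.05, which is 7.69% beside 6.96% of all tested genes. These were subunit genes of mTORC1. Mlst8 had 36.2, 27.9 and 29.1 CPM across WT, and 20.9, 20.6 and 24.2 CPM across Phlpp1-deficient libraries, with groups that did not overlap (log2 difference -0.51, SE 0.16, edgeR adjusted p = 0.534). Rptor had 69.0 ± 9.93 and 54.1 ± 1.52 CPM (SD, n = 3 per group; adjusted p by edgeR 0.685). Among 12 transcription factors of autophagy genes the median was -0.08 and 1 had an unadjusted p under 0.05 (8.33%). Foxo4 had 31.5 ± 1.385 and 39.8 ± 2.82 CPM, the stress factor gene Ddit3 had 34.3 ± 13.2 and 22.9 ± 1.59 CPM (SD, n = 3 per group; adjusted p by edgeR 0.627 and 0.767), and Tfeb, looked up by name, had 47.7 ± 11.9 and 47.1 ± 8.35 CPM (SD, n = 3 per group; adjusted p by edgeR 1). In a list of 14 genes of LC3-associated phagocytosis, 4 of them also members, the median was 0.02. Of the 14, 1 had an edgeR unadjusted p under 0.05 (7.14%). Timd4, a receptor for apoptotic cells, had 6.62, 5.54 and 6.89 CPM across WT, and 2.65, 3.67 and 1.99 CPM across Phlpp1-deficient libraries, every Phlpp1-deficient value below every WT value (log2 difference -1.20, SE 0.29, edgeR adjusted p = 0.397). Rubcn, which codes for Rubicon, had 39.2 ± 9.905 and 48.2 ± 12.6 CPM (SD, n = 3 per group; adjusted p by edgeR 0.99).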

How the data were processed

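Bead-captured messenger RNA went into Illumina libraries, per the labels' protocols. Tools named by the submitters' processing notes, without roles, are StringTie 1.3.0, HISAT2 and edgeR, with the mm10 build. Gene annotation and strand setting are not given in the sources used here. Per the file headers, the authors' table has 34745 genes with whole-number counts beside FPKM in each of 6 libraries. The FPKM values deposited by the authors equal counts divided by the library total and a length per gene (checked on the 9265 genes whose count exceeded 100 in all libraries). GENCODE M21 (GRCm38, the mm10 assembly) named 34344 gene IDs.

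The main test was edgeR 4.0.16 (R 4.3.3) on the counts with filterByExpr, TMM, robust glmQLFit and glmQLFTest, Benjamini-Hochberg adjusted over 14037 genes. The standard error was taken as the size of the log2 difference over the root of F, and 95% intervals use the fit's degrees of freedom. The biological coefficient of variation was 0.281. No library pair of a group agreed within sampling noise (chi-square per gene 34.4 to 173). Alternatives used DESeq2 1.42.0 and limma 3.58.1, among others. The pipeline was tested on simulated counts. The members and all gene lists were chosen with earlier results of these data known. By rule, the member of each role with the smallest p and that with the highest FPKM are given in every library, and from each pathway list the 2 genes with the smallest p outside the members.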

Additional observations from a re-analysis of the deposited data

How the results depend on the processing

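In all 16 alternatives to the genotype fit, 10 of settings and 6 leaving out a library, 0 of the 32 members passed. The median log2 difference over the members stayed between -0.03 and 0.09. Of the members, 12 kept the sign of their difference throughout, Pink1, Sqstm1, Atg12, Atg7 and Calcoco1 among them, and 20 turned sign in at least 1 fit. The number of genes called over all genes, 14, was 177 with DESeq2, 23 with limma-voom, 36 without a filter on low counts, 52 with the neutrophil covariate (added after seeing the data) and 1 to 32 when a library was left out. A replicate block on the library numbers left 1 gene called and no member. Same-numbered libraries deviated from their group means with correlations of -0.12, 0.33 and 0.29 for numbers 1, 2 and 3, and not every library correlated best with its own number, so the numbers were not taken as pairs.

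Among the other alternatives, 7 members turned sign. Atg14 turned to 0.0071 (limma on log2(FPKM + 0.1)), 0.0014 (limma on log2(FPKM + 1)), 0.031 (neutrophil marker mean as covariate). Becn1 turned to -0.015 (neutrophil marker mean as covariate). Gabarapl2 turned to -0.0017 (neutrophil marker mean as covariate). Nbr1 turned to 0.0025 (no filter on low counts). Pik3r4 turned to 0.019 (neutrophil marker mean as covariate). Rb1cc1 turned to 0.0029 (DESeq2), 0.0069 (RLE factors), 0.029 (library totals only), 0.060 (limma on log2(FPKM + 0.1)), 0.039 (limma on log2(FPKM + 1)), 0.051 (limma-voom), 0.022 (no filter on low counts), 0.049 (replicate block). Ulk1 turned to 0.013 (library totals only), 0.046 (limma on log2(FPKM + 0.1)), 0.038 (limma on log2(FPKM + 1)), 0.029 (limma-voom), 0.0051 (no filter on low counts), 0.033 (replicate block). Leaving out a library gave -0.16 to 0.056 for Atg10, -0.045 to 0.35 for Atg101, -0.14 to 0.018 for Atg13, -0.17 to 0.12 for Atg14, -0.0097 to 0.17 for Atg16l1, -0.20 to 0.14 for Atg3, -0.057 to 0.46 for Atg9a, -0.078 to 0.20 for Becn1, -0.24 to 0.0064 for Gabarap, -0.089 to 0.28 for Gabarapl1, -0.047 to 0.17 for Gabarapl2, -0.41 to 0.084 for Map1lc3a, -0.065 to 0.53 for Map1lc3b, -0.17 to 0.073 for Nbr1, -0.043 to 0.11 for Pik3c3, -0.14 to 0.090 for Pik3r4, -0.17 to 0.34 for Rb1cc1, -0.040 to 0.20 for Tax1bp1, -0.16 to 0.34 for Ulk1, -0.083 to 0.15 for Ulk2. The causes were not tested.

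For the change with the neutrophil mean, chosen after seeing the data, the 645 genes called became 1233 with DESeq2, 423 without a genotype term and 1 to 751 when a library was left out, and the members called became 2 with DESeq2 (8.35% of all genes called) and 1 without a filter on low counts (770 genes, 3.45%). With 3 libraries a group, the 95% intervals reached past 1.5-fold for all but 20 members.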
